A study of Homo sapiens with 6 samples.

Results

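The 10 genes described here are NQO1, HMOX1, GCLC, GCLM, GSR, TXNRD1, SRXN1, AKR1B10, GPX2 and GPX4, which encode NRF2 target enzymes, the enzymes of glutathione synthesis and recycling, and glutathione peroxidases. They were chosen by symbol, each matched 1 Ensembl gene identifier, and they are 10 of the 60612 genes with a count row, some of which hold no counts. All were abundant enough to be tested, among 17854 genes. RNA was sequenced from SKBR3, an established HER2-positive mammary epithelial cancer line. The trastuzumab group holds 3 libraries of SKBR3 cells kept for 30 weeks under rising amounts of trastuzumab, an antibody against HER2, and the parental group holds 3 libraries of untreated SKBR3 cells. The design asks how expression differs after acquired resistance, in a single line. The labels state neither whether the drug was present at harvest nor whether replicates were separate cultures, so p-values measure only the spread between these libraries, which may be technical.

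NRF2, the product of NFE2L2, is a transcription factor that KEAP1 and the ubiquitin ligase built on CUL3 hold at low levels by directing its degradation. When oxidants or electrophiles modify KEAP1, NRF2 accumulates, pairs with small MAF proteins and binds antioxidant response elements near genes of glutathione synthesis, the thioredoxin system, quinone reduction and haem breakdown, while BACH1 competes for the same elements. Glutathione is made from cysteine, glutamate and glycine, donates electrons to peroxidases and is restored by glutathione reductase with NADPH.

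Trastuzumab cells had higher levels of the aldo-keto reductase gene AKR1B10, the peroxidase gene GPX2 and the quinone reductase gene NQO1, and lower levels of the haem oxygenase gene HMOX1. AKR1B10 was 2.14-fold, GPX2 2.02-fold and NQO1 1.65-fold the parental level, and HMOX1 was 0.589-fold. The subunits of the enzyme that begins glutathione synthesis, GCLC and GCLM, were also lower, GPX4, TXNRD1 and SRXN1 were slightly higher, and GSR did not pass the test. In all, 6 genes rose, 3 fell and 1 did not pass the edgeR quasi-likelihood test at a Benjamini-Hochberg adjusted p below 0.05 over all tested genes. The same test called 49.3% of all tested genes, 23.9% higher and 25.4% lower. For 9 of the 10 the groups did not overlap, as for 57.5% of all tested genes. AKR1B10 and GPX2 changed at least 2-fold with a call, as did 7.78% of tested genes. The median log2 fold change was 0.17 over the 10 genes and -0.01 over all tested genes. Some of these directions depend on the fit. A corrected fit, described below, kept the calls of AKR1B10, GPX2, NQO1, TXNRD1 and HMOX1. It lost the call of GCLC and reversed GCLM, GPX4 and SRXN1.

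**Figure D1:**
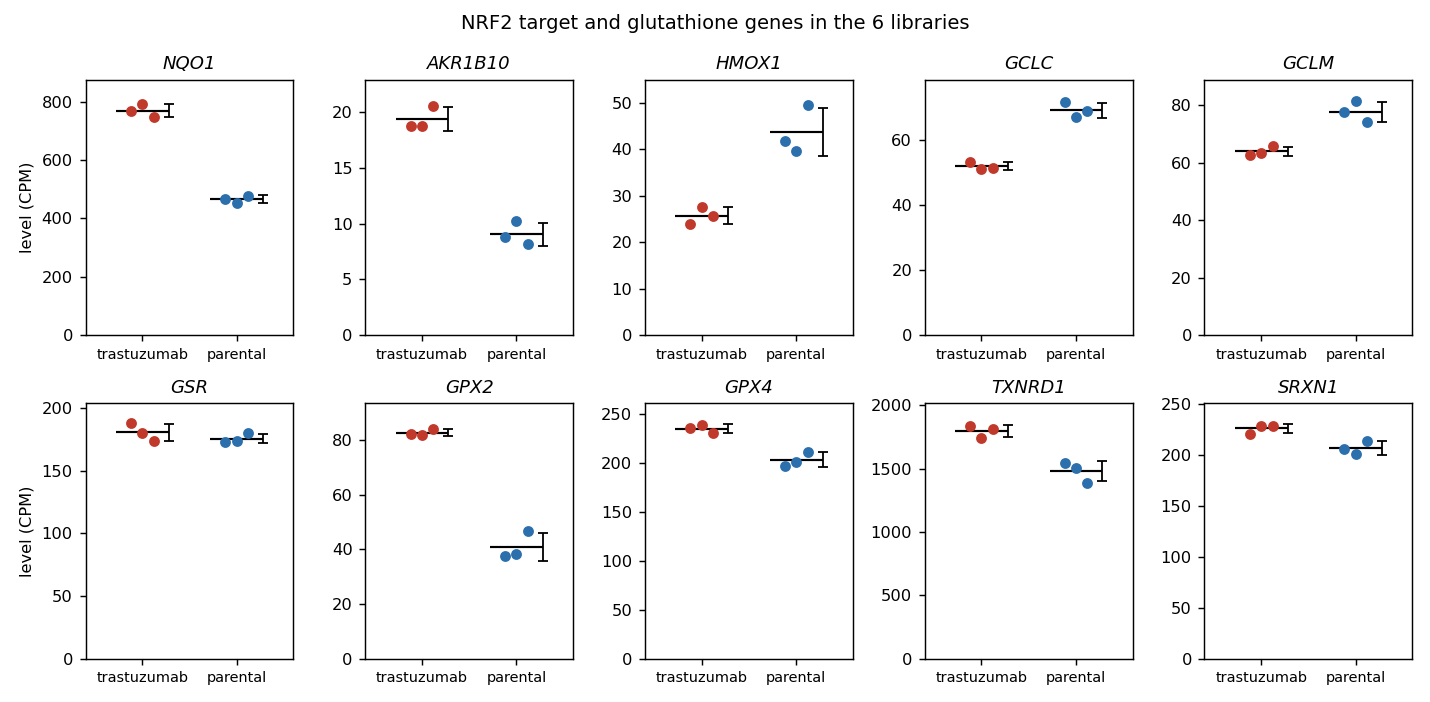
Level of each gene in CPM (linear axes starting at 0) in the trastuzumab libraries (red points, left) and the parental libraries (blue points, right), with the mean as a bar and the SD as a whisker (n = 3 each). AKR1B10, GPX2 and NQO1 stand clearly above and HMOX1 clearly below the parental libraries, while the GSR points overlap.

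Levels are in CPM, counts scaled to the TMM-adjusted library total. The libraries held 71.0 to 82.9 M counts under trastuzumab and 71.8 to 72.4 M in parental cells, and a count of 0 would allow at most 0.0372 to 0.0428 CPM (3 counts, counting error only). All 10 mammary epithelial markers checked, among them EPCAM, KRT8 and ERBB2, exceeded 10 CPM, with a summed level of 24520 to 26350 CPM in trastuzumab and 20860 to 22640 CPM in parental libraries. The 8 fibroblast markers summed to 6.71 to 11.4 CPM in trastuzumab and 9.48 to 19.6 CPM in parental libraries. The 8 immune markers summed to 42.7 to 49.2 CPM in trastuzumab and 14.9 to 17.3 CPM in parental libraries, mostly from CD68, while PTPRC, the defining leukocyte gene, stood at 0, 0.31 and 0.0873 CPM in trastuzumab libraries and at 0.271, 0.272 and 0 CPM in parental libraries. The 5 endothelial markers summed to 79.0 to 86.1 CPM in trastuzumab and 28.6 to 31.7 CPM in parental libraries, mostly from CDH5. No marker was at 0 in every library, and the part of these markers in the results was not tested. In bulk RNA, fewer cells of a kind and less RNA per cell cannot be told apart.

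Fold changes across the transcriptome followed base composition, which bears on several of these genes. Over 13569 tested protein-coding genes the Spearman correlation between log2 fold change and transcript GC content was 0.554, a description across genes that share libraries. Genes in the lowest GC quintile had a median of -0.47 and those in the highest quintile 0.37. A corrected fit that removes from each library a trend on GC content and exonic length called 38.1% of tested genes, and of the 10 genes it called 5 higher and 3 lower. It kept the direction and the call of AKR1B10, GPX2, NQO1, TXNRD1 and HMOX1, lost the call of GCLC, and turned the calls of GCLM, GPX4 and SRXN1 to the opposite direction. The trend went with the groups, so a technical trend and a change of the cells linked to base composition cannot be told apart.

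**Figure D2:**
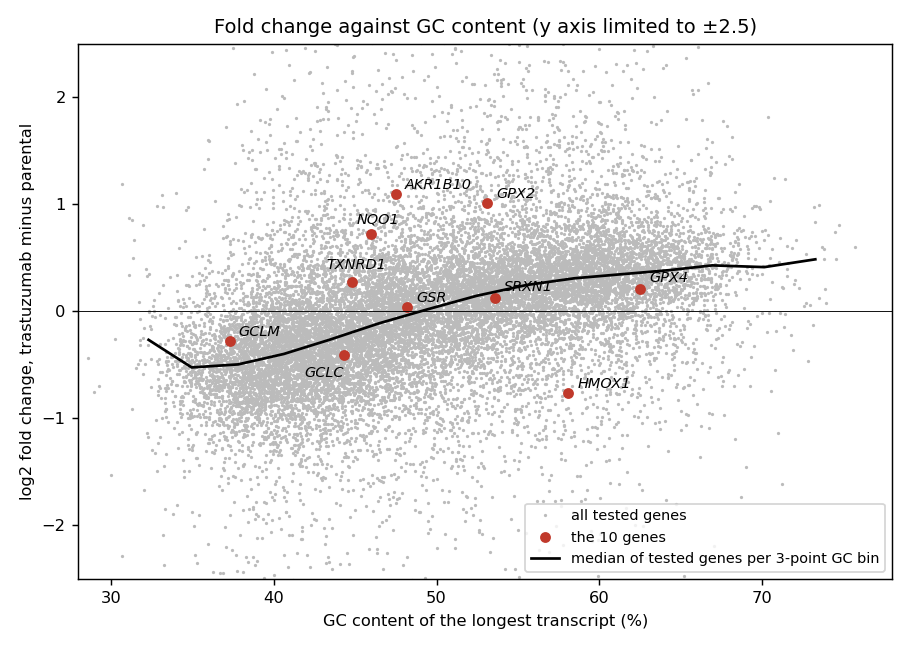
Log2 fold change of each tested gene (grey) against the GC content of its longest transcript in percent, with the median per GC bin (line) and the 10 genes (red, named). NQO1, AKR1B10, GPX2, TXNRD1 and GCLM lie above the median line, HMOX1, GCLC and GPX4 lie below it, and SRXN1 and GSR lie near it; genes beyond 2.5 in size are not drawn.

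Of the 7 genes with a scanned promoter window, 3 carried the core of the antioxidant response element. The core was taken as TGACNNNGC, or GCNNNGTCA on the other strand, within 250 bases before and 50 bases after an annotated start. Sequences come from the RefSeq table for GRCh38.p14. Windows were scanned for 7 of the genes, and none was scanned for HMOX1, AKR1B10 or GSR. Of all 35116 windows in that table, 13.3% held the core on either strand. Of the 10 windows scanned for these genes, 4 held the core. It was present in the windows of GCLM, GPX2 and TXNRD1 and not in these windows of NQO1, GCLC, SRXN1 or GPX4. A match of letters describes the window and shows no binding. The 4 windows with a match are printed 5′ to 3′ on the gene's strand to show where the core sits, with the core in capitals and 250 bases before the start in each.
GCLM, chr1:93909381-93909680, minus strand: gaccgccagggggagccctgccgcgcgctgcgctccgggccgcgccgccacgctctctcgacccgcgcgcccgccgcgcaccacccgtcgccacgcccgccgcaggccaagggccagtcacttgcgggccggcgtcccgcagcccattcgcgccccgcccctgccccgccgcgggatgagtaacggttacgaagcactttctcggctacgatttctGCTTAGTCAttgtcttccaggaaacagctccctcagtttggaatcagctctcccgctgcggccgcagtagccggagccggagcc
GPX2, chr14:64942696-64942995, minus strand: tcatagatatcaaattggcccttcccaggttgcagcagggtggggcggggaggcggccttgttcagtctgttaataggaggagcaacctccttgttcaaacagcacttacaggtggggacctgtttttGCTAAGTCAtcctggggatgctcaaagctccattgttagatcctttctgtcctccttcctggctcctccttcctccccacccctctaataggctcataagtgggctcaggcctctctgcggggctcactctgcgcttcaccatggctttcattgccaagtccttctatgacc
TXNRD1, upstream start, chr12:104215529-104215828, plus strand: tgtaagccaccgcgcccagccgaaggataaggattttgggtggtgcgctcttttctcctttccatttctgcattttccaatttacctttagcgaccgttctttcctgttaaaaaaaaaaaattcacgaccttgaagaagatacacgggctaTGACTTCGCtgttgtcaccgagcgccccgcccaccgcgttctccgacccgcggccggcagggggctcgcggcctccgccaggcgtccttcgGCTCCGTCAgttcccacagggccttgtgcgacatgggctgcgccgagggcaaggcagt
TXNRD1, downstream start, chr12:104286782-104287081, plus strand: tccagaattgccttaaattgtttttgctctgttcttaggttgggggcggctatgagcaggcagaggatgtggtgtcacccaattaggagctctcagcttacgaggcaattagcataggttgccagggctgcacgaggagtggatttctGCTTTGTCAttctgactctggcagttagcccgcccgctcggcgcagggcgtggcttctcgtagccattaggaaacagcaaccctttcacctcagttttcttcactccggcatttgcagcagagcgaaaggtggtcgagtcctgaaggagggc
The core began at position -34 from the start in GCLM, at -122 in GPX2, at -99 and -8 in the upstream window of TXNRD1 and at -102 in its downstream window. Of these 3 genes, GPX2 and TXNRD1 were higher under trastuzumab and GCLM was lower, while in the corrected fit all 3 were higher. Of the scanned genes without the core, NQO1 was higher in both fits (0.72, corrected 0.80). GPX4 and SRXN1 were higher before correction and lower after it. GCLC was lower before correction and not called after it. Whether the core goes with the direction was not tested.

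Among enzymes of quinone and carbonyl reduction, NQO1 was the second most abundant of the 10 genes. NQO1 (ENSG00000181019, hg38 chromosome 16, 69706996 to 69726951) encodes a quinone reductase that uses NADH or NADPH and is among the most widely used readouts of NRF2. It stood at 767, 793 and 747 CPM in the trastuzumab libraries and at 467, 452 and 478 CPM in the parental libraries. Every trastuzumab library lay well above every parental library. The log2 fold change was 0.72 ± 0.042 (SE, n = 3 each, edgeR adjusted p = 1.1e-09), larger in size than that of 76.4% of tested genes, and 0.80 in the corrected fit.

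AKR1B10 (ENSG00000198074, chromosome 7, 134527592 to 134541408) encodes an aldo-keto reductase that acts on retinal and lipid aldehydes. It stood at 18.8, 18.8 and 20.6 CPM in trastuzumab libraries and at 8.78, 10.2 and 8.18 CPM in parental libraries. The groups were far apart relative to their spread, with a log2 fold change of 1.10 ± 0.11 (edgeR adjusted p = 2.98e-07) and 1.07 in the corrected fit. The uncorrected change was larger in size than that of 89.6% of tested genes. AKR1B10 has close paralogs, and how the counting treated reads shared with them is not given in the sources used here.

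In the quinone, aldehyde and carbonyl reduction list, more genes were called higher than lower. Of its 19 tested genes, NQO1 and AKR1B10 included, 12 rose, 3 fell and 4 did not pass (list median 0.29). The test called 78.9% of the list and 49.3% of all tested genes, the latter 23.9% higher and 25.4% lower. OSGIN1, an oxidative stress-induced growth inhibitor and known NRF2 target, averaged 12.7 ± 1.45 CPM under trastuzumab and 6.06 ± 0.858 CPM in parental cells (SD, n = 3 each). The steroid and prostaglandin reductases AKR1C1 and AKR1C3 were also higher, AKR1C1 at 2.63 ± 0.433 against 1.40 ± 0.112 CPM and AKR1C3 at 4.59 ± 0.355 against 2.84 ± 0.249 CPM. The AKR1C genes are close paralogs, so their separate levels are uncertain. In the corrected fit 9 genes of the list were higher and 2 lower, with a median of 0.09. That fit called 38.1% of all tested genes.

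HMOX1 (ENSG00000100292, chromosome 22, 35380361 to 35394214), which encodes the inducible haem oxygenase that opens haem to biliverdin, carbon monoxide and iron, fell. It stood at 23.9, 27.6 and 25.7 CPM in trastuzumab libraries and at 41.9, 39.7 and 49.7 CPM in parental libraries. Parental replicate 3 was the highest library, and no trastuzumab library reached the lowest parental one. The log2 fold change was -0.76 ± 0.088 (edgeR adjusted p = 2.01e-06). HMOX1 has a high GC content (58.1%), and the 200 tested genes closest to it in GC content had a median of 0.34. With the trend removed its log2 fold change was -1.13.

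The list of haem and iron genes, HMOX1 included, was divided. Of 11 tested, 4 rose, 4 fell and 3 did not pass (list median 0.10). FTL, the ferritin light chain and a classical NRF2 target, rose to 458, 473 and 437 CPM in trastuzumab libraries, against 212, 224 and 232 CPM in parental libraries. Its log2 fold change was 1.03 ± 0.047 (edgeR adjusted p = 7.98e-11). CPOX and FECH, enzymes of haem synthesis, fell, CPOX to 6.96 ± 0.906 CPM under trastuzumab against 11.02 ± 0.590 CPM in parental cells and FECH to 56.2 ± 0.874 against 72.6 ± 3.12 CPM. The corrected fit called 1 gene of this list higher and 3 lower (median -0.06).

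Both subunits of glutamate-cysteine ligase, the rate-limiting enzyme of glutathione synthesis, were lower under trastuzumab before correction. GSS, which encodes glutathione synthetase and was named after its values were seen, was higher. It averaged 122.3 ± 5.2 CPM under trastuzumab and 90.6 ± 3.8 CPM in parental cells. The log2 fold change of GSS was 0.43 (edgeR adjusted p = 3.14e-06), and 0.26 in the corrected fit. GCLC (ENSG00000001084, chromosome 6, 53497341 to 53616970), the catalytic subunit, stood at 53.4, 51.1 and 51.6 CPM in trastuzumab libraries and at 71.8, 67.2 and 68.9 CPM in parental libraries. Its log2 fold change was -0.41 ± 0.056 (edgeR adjusted p = 1.2e-05), and -0.10 in the corrected fit (adjusted p = 0.12). GCLM (ENSG00000023909, chromosome 1, 93885205 to 93909456), the modifier subunit that raises the affinity for glutamate, stood at 62.6, 63.5 and 65.8 CPM in trastuzumab libraries and at 77.5, 81.3 and 74.3 CPM in parental libraries. Its log2 fold change was -0.28 ± 0.054 (edgeR adjusted p = 0.000373) and became 0.15 with correction (adjusted p = 0.0281). The groups did not overlap for either subunit before correction. GCLM is the lowest of the 10 in GC content (37.3%), and tested genes of like GC content had a median of -0.49, lower than its own value.

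On the length-scaled FPKM values, GCLM exceeded GCLC in every library. The ratio of GCLM to GCLC was 1.86, 1.97 and 2.03 in the trastuzumab libraries and 1.72, 1.92 and 1.71 in the parental libraries. These ranges overlap, so the balance of the subunits did not separate the groups.

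GSR (ENSG00000104687, chromosome 8, 30678061 to 30727999), which encodes the reductase that restores glutathione with NADPH, stood at 188, 180 and 174 CPM in trastuzumab libraries and at 173, 174 and 180.1 CPM in parental libraries. The libraries of the groups were interleaved. The log2 fold change was 0.04 ± 0.046 (edgeR adjusted p = 0.524) and 0.03 in the corrected fit. It is the only one of the 10 whose groups overlapped and that did not pass the test.

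SLC7A11, the exchanger subunit that brings in cystine for glutathione, stood at 3.17, 2.69 and 2.81 CPM in trastuzumab libraries and at 12.3, 10.6 and 9.6 CPM in parental libraries. It fell by 1.91 on the log2 scale (SE 0.15, edgeR adjusted p = 2.53e-08), and by 1.30 with correction. Its partner SLC3A2, shared with other amino acid transporters and named after its values were seen, rose by 0.66. LANCL1, which binds glutathione, averaged 44.0 ± 4.02 CPM under trastuzumab and 100.1 ± 8.62 CPM in parental cells, and GGT5, a gamma-glutamyl transferase, averaged 25.5 ± 1.03 and 11.3 ± 1.6 CPM. Of the 17 genes of the list, 7 rose, 5 fell and 5 did not pass (list median 0.04). The corrected fit called 6 higher and 3 lower.

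**Figure D3:**
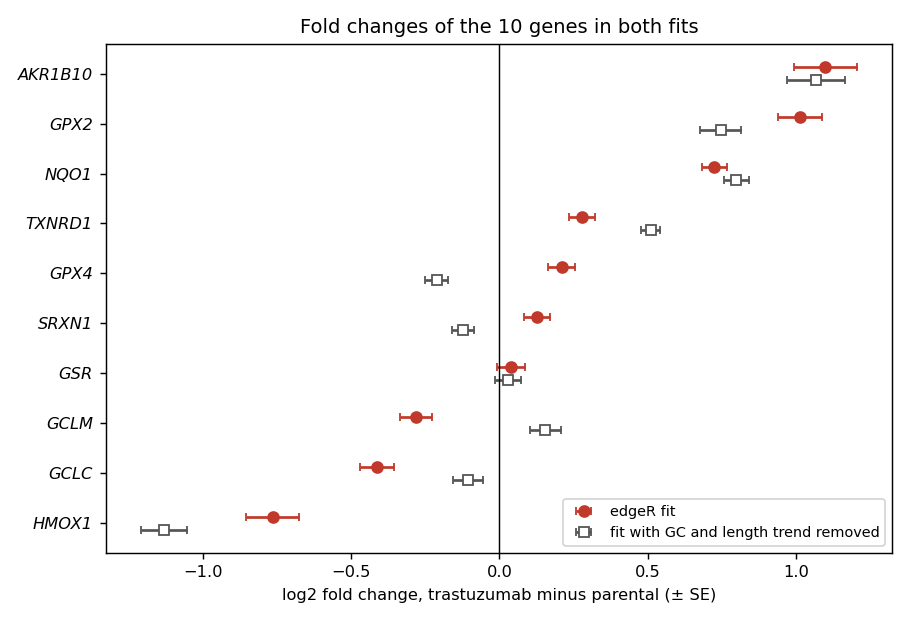
Log2 fold change, trastuzumab minus parental, with its SE for each of the 10 genes in the edgeR fit (red circles) and in the fit with the GC and length trend removed (open squares). AKR1B10, GPX2, NQO1 and TXNRD1 stay positive and HMOX1 stays negative in both fits, while GPX4, SRXN1 and GCLM cross 0.

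GPX2 (ENSG00000176153, chromosome 14, 64939152 to 64942905) is a selenium-dependent peroxidase of epithelia that reduces hydrogen peroxide with glutathione. It stood at 82.2, 81.7 and 84.1 CPM in trastuzumab libraries and at 37.5, 38.5 and 46.9 CPM in parental libraries. The trastuzumab libraries lay close together and far above the parental ones, of which replicate 3 was the highest. The log2 fold change was 1.01 ± 0.075 (edgeR adjusted p = 2.35e-08), and 0.75 in the corrected fit. GPX2 overlaps CHURC1 on the other strand, and CHURC1 averaged 46.2 CPM under trastuzumab and 39.8 CPM in parental cells. The strand setting of the counting is not given in the sources used here.

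GPX4 (ENSG00000167468, chromosome 19, 1103926 to 1106791), the selenoenzyme that reduces lipid hydroperoxides in membranes and guards cells against ferroptosis, stood at 236, 239 and 230.3 CPM in trastuzumab libraries and at 197, 200.9 and 212 CPM in parental libraries. The groups were close but did not overlap. The log2 fold change was 0.21 ± 0.045 (edgeR adjusted p = 0.000846). GPX4 is the highest of the 10 in GC content (62.5%), genes of like GC content had a median of 0.38, and the corrected value was -0.21 (adjusted p = 0.000401), so its direction depends on the correction. The FPKM ratio of GPX2 to GPX4 was 0.469, 0.461 and 0.492 in trastuzumab libraries and 0.256, 0.258 and 0.299 in parental libraries, without overlap.

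Peroxidase, catalase and superoxide dismutase genes rose or did not pass before correction. Of 12 genes, 9 were tested, of which 6 rose, none fell and 3 did not pass (list median 0.44), while 3 were too low to test. The test called 66.7% of the tested genes of this list and 49.3% of all tested genes, the latter 23.9% higher and 25.4% lower. The secreted peroxidase GPX3 stood at 65.2, 79.4 and 73.2 CPM in trastuzumab libraries and at 26.1, 23.0 and 26.1 CPM in parental libraries. It rose by 1.53 ± 0.080 on the log2 scale (edgeR adjusted p = 3.39e-10). The mitochondrial superoxide dismutase SOD2 averaged 211 ± 4.87 CPM under trastuzumab and 155 ± 2.41 CPM in parental cells, and the extracellular SOD3 averaged 8.999 ± 1.56 and 2.91 ± 0.492 CPM. GPX1, the broadly expressed cytosolic peroxidase, was nearly undetected, at 0.186, 0.0868 and 0.374 CPM in trastuzumab libraries and at 0.176, 0 and 0.151 CPM in parental libraries. GENCODE 29 classes GPX1 as a polymorphic pseudogene, and whether the counting treated its reads differently for that reason was not tested, so these counts may not give its level in the cells. The corrected fit called 5 genes of this list higher and 1, GPX4, lower. SOD2 overlaps WTAP on the other strand, at 59.2 CPM under trastuzumab and 70.5 CPM in parental cells.

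TXNRD1 (ENSG00000198431, chromosome 12, 104215779 to 104350305), the cytosolic selenoprotein that reduces thioredoxin with NADPH, was the most abundant of the 10 genes. It stood at 1834, 1743 and 1809 CPM in trastuzumab libraries and at 1544, 1507 and 1390 CPM in parental libraries. All trastuzumab libraries were higher, with a modest log2 fold change of 0.28 ± 0.044 (edgeR adjusted p = 5.83e-05) that became 0.51 in the corrected fit. TXNRD1 alone gave 50.9 to 52.6% of the summed level of the 10 genes in trastuzumab libraries and 51.1 to 54.7% in parental libraries. Its locus holds the pseudogene RPL18AP3 on the same strand, which averaged 176 CPM under trastuzumab and 104 CPM in parental cells.

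SRXN1 (ENSG00000271303, chromosome 20, 646615 to 653370) encodes sulfiredoxin, which repairs overoxidized peroxiredoxins. It stood at 221, 229 and 229 CPM in trastuzumab libraries and at 206, 200.7 and 214 CPM in parental libraries, a narrow gap with no overlap. The log2 fold change was 0.13 ± 0.044 (edgeR adjusted p = 0.0241). This call was lost without trastuzumab replicate 2 (adjusted p = 0.0619) or 3 (0.0931), without parental replicate 1 (0.0506) or 2 (0.116), and with library totals alone (0.161). It was also lost at a threshold of 0.01 and by limma on log2(FPKM + 1) (0.1895), on log2(FPKM + 0.1) (0.1887) and on log2(FPKM + 1) with no filter (0.203). The call and direction held in 9 of 21 alternatives. The corrected value was -0.12 (adjusted p = 0.0175).

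In the thioredoxin and peroxiredoxin list, 10 of 20 tested genes rose, 5 fell and 5 did not pass (list median 0.17), or 7 higher and 4 lower with correction (median -0.03). TXNIP, which binds and inhibits thioredoxin, rose to 124, 128 and 131 CPM in trastuzumab libraries, against 47.5, 51.0 and 42.4 CPM in parental libraries. Its log2 fold change was 1.44 ± 0.063 (edgeR adjusted p = 5.19e-11), and 1.61 with correction. TXN, thioredoxin itself, averaged 125 ± 0.366 CPM under trastuzumab and 161 ± 2.12 CPM in parental cells, a log2 fold change of -0.36 (edgeR adjusted p = 3.4e-06) that was -0.09 and not called with GC correction alone (adjusted p = 0.0909). The mitochondrial reductase TXNRD2 averaged 83.8 ± 4.12 and 49.8 ± 3.99 CPM. SESN3, a sestrin, averaged 2.24 ± 0.315 and 3.75 ± 0.828 CPM, a fall whose call was lost with correction (adjusted p = 0.639) and without parental replicate 1 (0.0659).

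The genes that control NRF2 moved in both directions. NFE2L2, which encodes NRF2, stood at 27.3, 26.0 and 29.7 CPM in trastuzumab libraries and at 46.3, 39.5 and 40.7 CPM in parental libraries, a log2 fold change of -0.61 ± 0.081 (edgeR adjusted p = 8.72e-06). KEAP1, its inhibitor, stood at 43.5, 44.7 and 44.3 CPM in trastuzumab libraries and at 26.4, 26.8 and 32.2 CPM in parental libraries, a log2 fold change of 0.63 ± 0.081 (edgeR adjusted p = 6.05e-06). The RNA of the activator was lower and that of its inhibitor higher, with no overlap between groups in either. CUL3, named after its values were seen, was also lower, at 55.1 ± 2.5 CPM under trastuzumab and 78.6 ± 5.7 CPM in parental cells. Its log2 fold change was -0.51 (edgeR adjusted p = 3.4e-06), and 0.07 and not called in the corrected fit. The corrected values were -0.44 for NFE2L2 and 0.27 for KEAP1.

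BACH1, the repressor that competes at antioxidant response elements, stood at 14.0, 13.1 and 11.6 CPM in trastuzumab libraries and at 26.4, 21.95 and 23.8 CPM in parental libraries. It fell by 0.90 on the log2 scale (edgeR adjusted p = 1.21e-06). The small MAF genes MAFF and MAFK, whose products pair with both NRF2 and BACH1, rose, MAFF to 49.1 ± 3.13 CPM under trastuzumab against 26.7 ± 2.78 CPM in parental cells and MAFK to 310.2 ± 13.7 against 174 ± 12.1 CPM. With correction the log2 fold changes were smaller in size, at -0.41 for BACH1, 0.56 for MAFF and 0.47 for MAFK. Of the 11 genes of the list, 6 rose, 3 fell and 2 did not pass (list median 0.23), and 6 were higher and 2 lower with correction. MAFK overlaps TMEM184A on the other strand, at 137 CPM under trastuzumab and 99.6 CPM in parental cells.

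**Figure D4:**
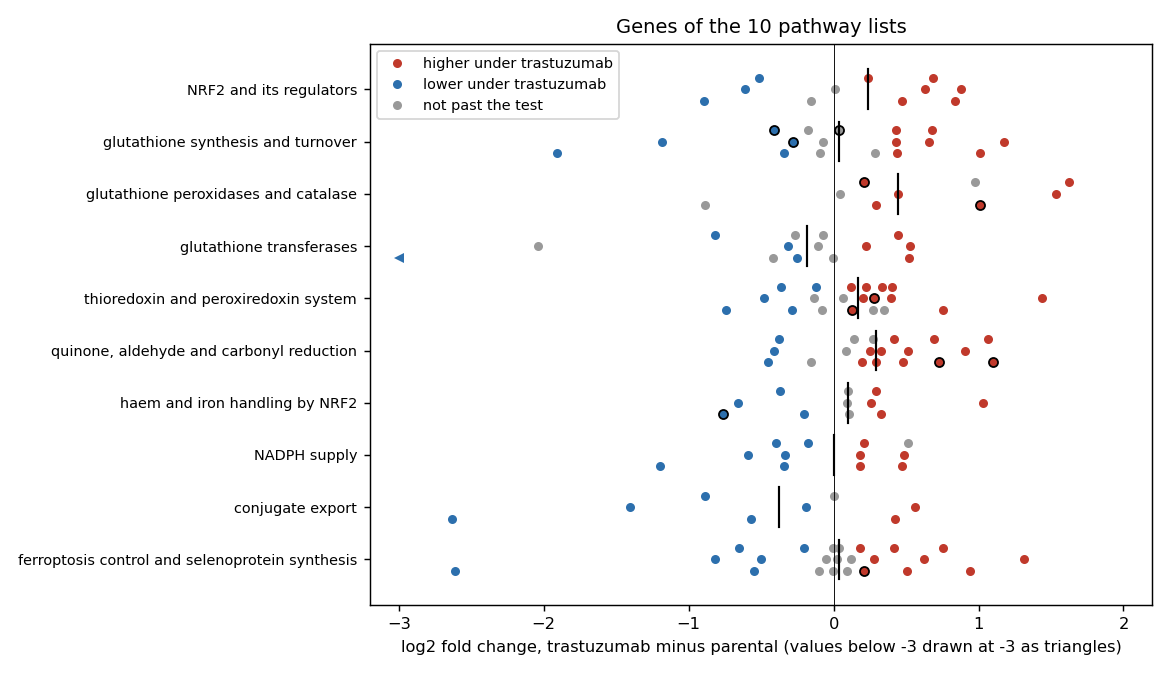
Log2 fold change, trastuzumab minus parental, of every tested gene of the 10 pathway lists (red, higher; blue, lower; grey, not past the test), with the 10 genes described here outlined in black and each list's median as a bar. The peroxidase list has the highest median (0.44) and conjugate export the lowest (-0.38); a gene below -3 is drawn at -3 as a triangle.

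NADPH, which GSR, TXNRD1 and NQO1 use, comes largely from the pentose phosphate pathway, malic enzymes and isocitrate dehydrogenases. Of 12 tested genes of NADPH supply 5 rose, 6 fell and 1 did not pass (list median 0.00), or 2 higher and 5 lower with correction. The cytosolic malic enzyme ME1, an NRF2 target, stood at 44.2, 43.0 and 43.2 CPM in trastuzumab libraries and at 104.3, 102.3 and 92.1 CPM in parental libraries, a log2 fold change of -1.20 ± 0.058 (edgeR adjusted p = 1.57e-10). ME2, the mitochondrial form, averaged 17.7 ± 0.251 and 26.6 ± 1.597 CPM, a fall whose call was lost with correction (adjusted p = 0.67). TALDO1, transaldolase of the pentose phosphate pathway, rose to 501 ± 15.3 CPM under trastuzumab against 358 ± 21.0 CPM in parental cells.

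Of 8 tested transporters that export glutathione conjugates and drugs, 5 fell, 2 rose and 1 did not pass (list median -0.38, corrected -0.41). The test called 87.5% of this list and 49.3% of all tested genes, the latter 23.9% higher and 25.4% lower. ABCG2 stood at 3.21, 3.10 and 3.27 CPM in trastuzumab libraries and at 20.1, 20.0 and 19.3 CPM in parental libraries, a log2 fold change of -2.63 ± 0.11 (edgeR adjusted p = 2.57e-11). ABCC2, which exports glutathione conjugates and is an NRF2 target, averaged 14.0 ± 2.08 CPM under trastuzumab and 37.1 ± 2.21 CPM in parental cells, and ABCC4 averaged 11.5 ± 2.21 and 21.2 ± 4.68 CPM. The call of ABCC4 was lost by limma on log2(FPKM + 1) with no filter (adjusted p = 0.0714). Glutathione transferases split into 4 that rose, 4 that fell and 6 that did not pass of 14 tested (list median -0.18), and in the corrected fit 6 were higher and 4 lower, with a median of 0.10. GSTZ1 averaged 43.3 ± 1.99 CPM under trastuzumab and 30.1 ± 1.41 CPM in parental cells and the membrane-bound MGST2 26.7 ± 2.18 and 18.6 ± 0.666 CPM, while GSTCD averaged 10.8 ± 0.947 and 19.1 ± 1.17 CPM.

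GPX4, GPX2 and TXNRD1 are selenoproteins, and GPX4 is the central enzyme of ferroptosis control. In the list of ferroptosis control and selenoprotein synthesis, 9 of 23 tested genes rose, 6 fell and 8 did not pass (list median 0.04), and in the corrected fit 11 were higher and 7 lower, with a median of 0.23. The selenoproteins SELENOW and SELENOM rose, SELENOW to 285 ± 16.8 CPM under trastuzumab against 115 ± 5.28 CPM in parental cells and SELENOM to 45.7 ± 4.15 against 23.8 ± 1.09 CPM. ACSL4, which loads the polyunsaturated fatty acids that lipid peroxidation needs, stood at 0.0571, 0.0496 and 0.399 CPM in trastuzumab libraries and at 1.37, 1.15 and 0.619 CPM in parental libraries. Its log2 fold change of -2.61 ± 0.70 (edgeR adjusted p = 0.00713) rests on few counts. It was -4.26 without trastuzumab replicate 3, and by limma on log2(FPKM + 1) with no filter it was -0.16 and not called (adjusted p = 0.079).

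Per unit of length, on the deposited FPKM values, the 10 genes spanned a wide range and kept nearly the same order in both groups. In trastuzumab libraries the means ran from 229.7 ± 6.46 FPKM for TXNRD1 and 222 ± 6.54 for NQO1 through GPX4 (99.9), SRXN1 (76.8), GPX2 (47.3) and GSR (43.0) to GCLM (10.1), HMOX1 (9.61), AKR1B10 (9.39) and GCLC (5.18 ± 0.132). In parental libraries they ran from 199 ± 12.8 FPKM for TXNRD1 through NQO1 (141), GPX4 (90.6), SRXN1 (73.7), GSR (43.9), GPX2 (24.6), HMOX1 (17.1), GCLM (12.9) and GCLC (7.24) to AKR1B10 (4.60 ± 0.560). In trastuzumab libraries TXNRD1 overlapped NQO1, GCLM overlapped HMOX1 and HMOX1 overlapped AKR1B10, and all other neighbours in the order were apart over the libraries. In parental libraries every neighbour pair was apart. GPX2 thus stood above GSR in trastuzumab libraries and below it in parental libraries, and AKR1B10 stood above GCLC in trastuzumab libraries and below it in parental libraries.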

How the data were processed

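STAR 2.4.2a and the hg38 build are named in the submitters' processing notes, and, per the labels' protocols libraries came from 1 µg of total RNA with a directional kit. For the counter, its strand setting and its annotation, nothing is stated (not given in the sources used here). The authors deposited raw counts per gene for 60612 Ensembl genes and FPKM for 33686, and no column was left unused. Symbols came from a gene name table, and positions, exonic length and transcript GC content from GENCODE 29 on hg38.

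Counts were fitted once over all genes by the robust quasi-likelihood F test of edgeR 4.0.16 under R 4.3.3 (filterByExpr, scaling by TMM, trastuzumab minus parental, no covariate). An SE is the log2 fold change divided by the square root of F. The corrected fit uses offsets from splines (5 degrees of freedom) on GC content and log2 exonic length. FPKM served levels between genes and, as log2(FPKM + 1) or log2(FPKM + 0.1), limma 3.58.1 alternatives (at least 1 FPKM in 3 libraries, or no filter). DESeq2 1.42.0 was another. Scripts were tested on simulated data. Replicate libraries differed by more than sampling noise (chi-square per degree of freedom 19.1 to 29.2).

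The members, the 10 pathway lists (154 entries, 1 without a match) and the tests were chosen with earlier results of these data known. Named genes are all members, from each list up to 3 called genes with the largest change, no overlap and, in the group where it is higher, a mean level of 1 CPM or more, and NFE2L2, KEAP1, SLC7A11, GPX1 and TXN. SLC3A2, GSS and CUL3 were named outside this rule, after their values were seen.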

Additional observations from a re-analysis of the deposited data

How the results depend on the processing

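Over 21 alternatives, AKR1B10, GPX2, NQO1 and HMOX1 kept their direction and call, with log2 fold changes of 0.89 to 1.19, 0.75 to 1.12, 0.65 to 0.85 and -1.13 to -0.66. GSR never passed the test. Correction for GC content and length, for GC content alone, and for GC content and length with a replicate block reversed GCLM (0.15, 0.18 and 0.16), SRXN1 (-0.12, -0.072 and -0.12) and GPX4 (-0.21, -0.16 and -0.21), and GCLC was not called with the length term (-0.10, adjusted p = 0.12 and 0.163). With GC correction alone, the reversed SRXN1 value was not called (adjusted p = 0.155). TXNRD1 was not called by limma on log2(FPKM + 1) with no filter (adjusted p = 0.0751). The cause was not tested. The number of changed genes among the 10 ranged from 7 to 9.

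Called genes in the thioredoxin list fell to 9 by limma on log2(FPKM + 1) with no filter and to 9 with GC correction, those of haem and iron to 4 with GC and length correction, 5 with GC correction and 5 with the replicate block and correction, and those of NADPH supply to 7 and, with the block, 6. Ranks by CPM per kb of exonic length exchanged HMOX1 and AKR1B10 in the trastuzumab group.

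Same-numbered libraries did not deviate together in every pair (r of 0.213, -0.02 and 0.0013 for numbers 1 to 3), so the numbers were not treated as pairs. With the replicate block alone 8653 genes changed, against 8808 without it, and 9 of the 10 genes kept their call. Few counts limit ACSL4.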
